A study of Mus musculus with 15 samples.

Results

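The lungs of 4 wild-type mice challenged with ovalbumin were compared with the lungs of 4 unchallenged wild-type mice, which together are 8 of the 15 arrays of the series. Ovalbumin (OVA) is an egg-white protein that serves as an experimental allergen of the airway. All 8 mice were labelled as C57BL/6, wild type and 22 weeks of age, and the members were taken by these labels alone. The challenged mice carry the label OVA challenge and the unchallenged mice the label control. The labels state no adjuvant, dose, route, schedule or time from the last exposure, and no sex for the wild types. The other 7 arrays come from mice with a mutation of Ifit2, an interferon-induced gene, and entered the model, which used all 15 arrays for its filter on detection and its estimate of the spread between mice. Total RNA of lung was labelled and hybridised to Illumina mouse beadchips, with 1 array per mouse. Values are normalized log2 intensities, where a positive change means higher in challenged lung.

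In an allergic airway, epithelial alarmins such as interleukin 33 act on innate lymphoid cells and T helper cells, which release interleukins 4, 5 and 13. Interleukins 4 and 13 signal through a shared receptor chain to the transcription factor STAT6, which turns airway secretory cells towards mucus production and macrophages towards an alternatively activated state. Interleukin 5 and the eotaxins bring eosinophils into the tissue. The resident lung is a thin sheet of type 1 epithelial cells and capillary endothelium, kept open by the surfactant of type 2 cells, and glucocorticoid hormone acts on nearly all of these cells.

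Lung markers were detected on all 8 arrays, among them the surfactant gene Sftpc, the club cell gene Scgb1a1, the ciliated cell factor Foxj1 and the endothelial cadherin gene Cdh5. Challenged arrays had a mean signal of 438, 502, 449 and 502 intensity units, against 495, 645, 633 and 624 on unchallenged arrays. This difference, 473 ± 34.2 in challenged and 599 ± 70.1 in unchallenged lung (SD, n = 4 each), had an exact two-sided permutation p of 0.0857, where the smallest possible is 0.0286. The share of probes detected was 47.3 ± 2.21% in challenged and 51.4 ± 2.24% in unchallenged lung (SD, n = 4 each; exact permutation p = 0.0571). Xist, the RNA of the inactive X chromosome of females, was detected on all 15 arrays. These include the arrays of the mutants, which the design text describes as male. Some arrays also carried genes of other tissues. The summed intensity of 19 exocrine pancreas genes was 168254, 78002, 2218 and 1590 on challenged arrays 1 to 4, and lay between 1244 and 1398 on the unchallenged arrays. Skeletal muscle, squamous epithelium and cardiac muscle genes varied within both groups and their ranges overlapped between them. Of these lists 1 gene passed the test, Pnliprp1, a lipase-related protein of the pancreas, and its part in the other results was not tested beyond leaving arrays out.

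**Figure D1:**
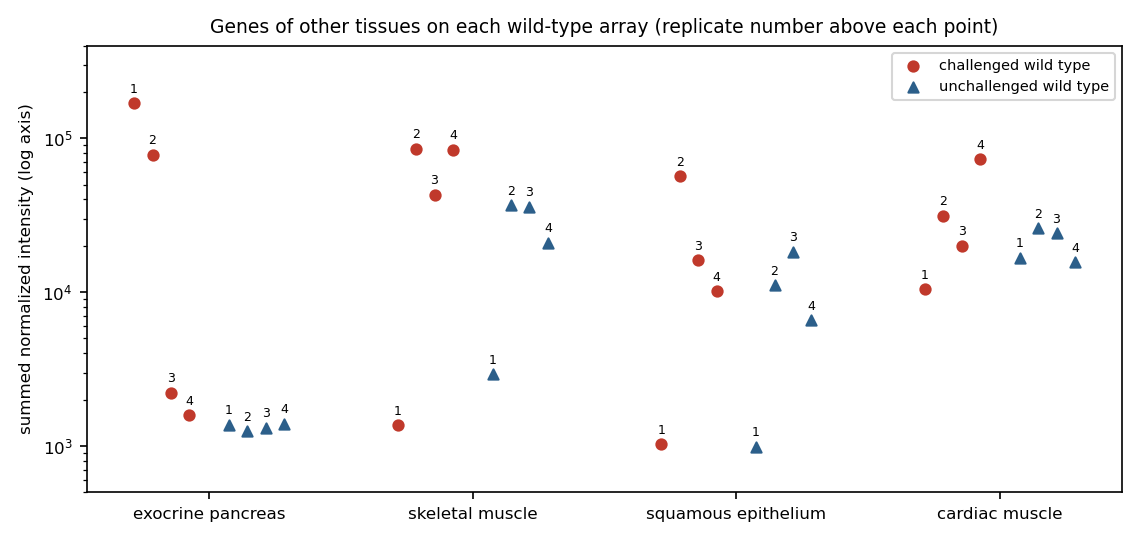
Summed normalized intensity of genes of other tissues (log axis) on each array, with challenged wild types as circles on the left of each pair and unchallenged wild types as triangles, and the replicate number above each point. Pancreas genes stood at 168254 and 78002 on challenged arrays 1 and 2, and the other 6 arrays lay at or below 2218.

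The challenge changed 2300 of 10194 genes, or 22.6%, at a limma adjusted p under 0.05. Of the genes tested 1140 (11.2%) were higher and 1160 (11.4%) were lower in challenged lung, and the median log2 change over all genes was 0.02. Called or not, 1490 genes (14.6%) had all 4 challenged arrays above all 4 unchallenged ones, and 1505 (14.8%) had them all below. The higher genes reached further: 274 exceeded a log2 change of 1, 39 exceeded 2 and 17 exceeded 3, whereas 200 fell below -1, 2 below -2 and 0 below -3. Leaving out single arrays gave 1492 to 2185 called genes, and the count moved by over 1.5 times without unchallenged array 2 (1492) or 3 (1521). With the mean signal of each array as a covariate 1041 genes passed. Counted by probes, 1411 of 14396 (9.8%) were higher and 1829 (12.7%) lower. Scaling each array to its median in place of quantile normalization gave 558 higher and 4600 lower probes and moved the median probe to -0.31, so that small changes below hold relative to that median. In RNA of whole lung, a change in the number of cells of a type and a change in RNA per cell cannot be told apart. The limma p-values set the difference between the groups against the spread between mice within groups, estimated over all 15 arrays.

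**Figure D2:**
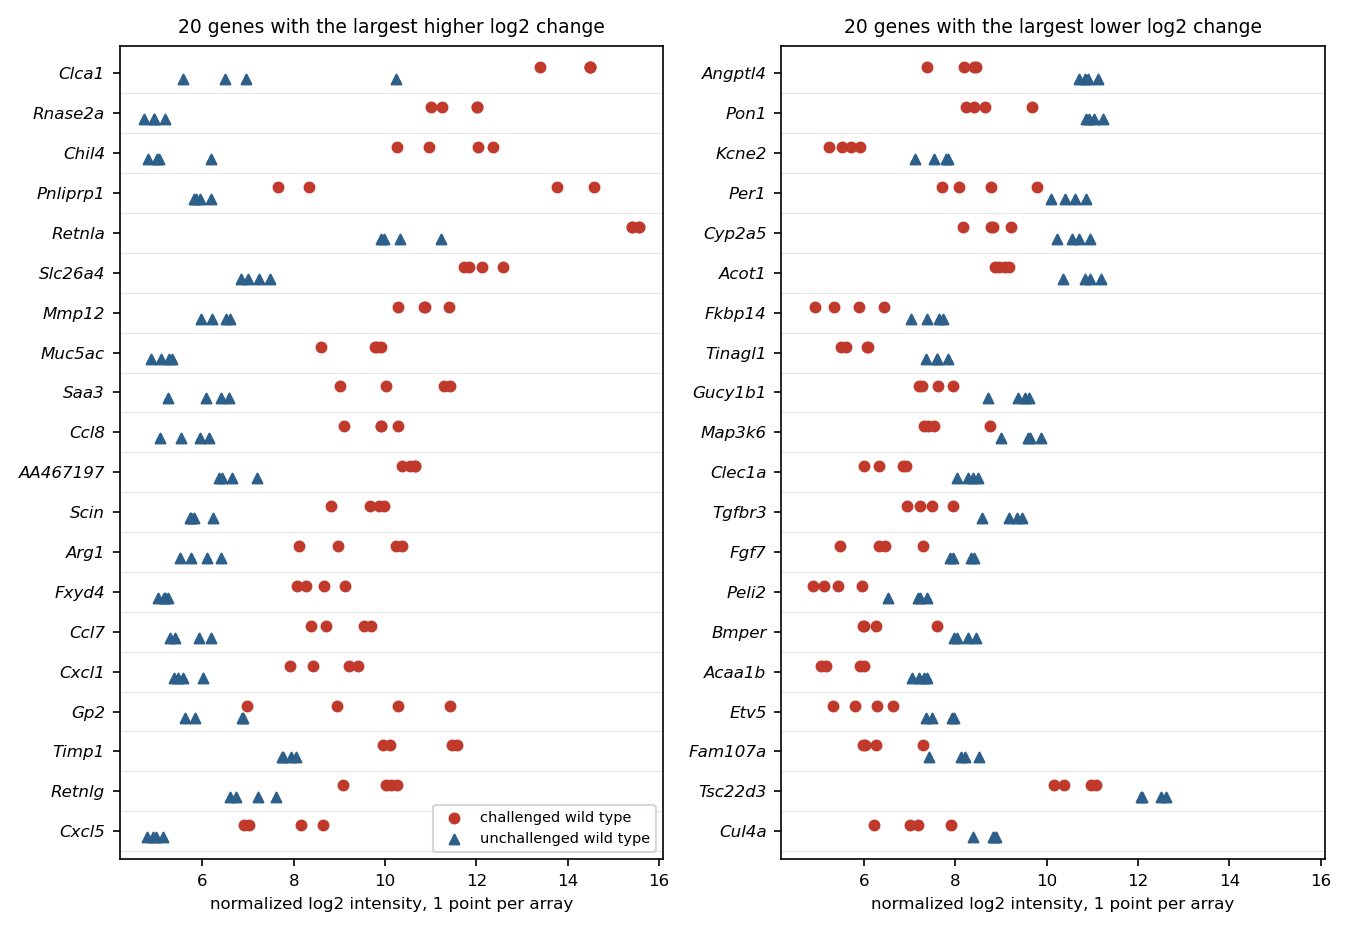
Normalized log2 intensity of the 20 genes with the largest higher and the 20 with the largest lower log2 change among genes called with groups that do not overlap, 1 point per array, with challenged wild types as circles above unchallenged wild types as triangles. Changes ran up to 6.89 (Clca1) in the higher genes and to -2.79 (Angptl4) in the lower genes.

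Genes upstream in the response were measured unevenly. Of 13 tested alarmins and receptors of type 2 cytokines 4 were higher (30.8%) and 1 was lower (7.69%), against 11.2% and 11.4% of all genes. Their median log2 change of 0.08 ran from 0.08 to 0.17 over fits without 1 array. None was lower without challenged array 2 or 3 or unchallenged array 2, 3 or 4. Il33, the alarmin of epithelial and stromal cells, stood at 10.67, 11.29, 10.94 and 11.29 on challenged arrays, against 9.83, 10.19, 10.17 and 9.91 on unchallenged arrays. All 4 challenged arrays lay above all unchallenged ones, as for 14.6% of all genes. Il33 rose 2.03-fold (log2 1.02 ± 0.27, SE, with limma adjusted p = 0.0144), a call that ended with median scaling. Il1b, a cytokine of the inflammasome, rose 3.84-fold and its antagonist Il1rn 2.18-fold. The cytokines Il5, Il9 and Il13 were not detected on any of the 8 arrays and Il4 was detected on 1 challenged array, and no fold is given for them. Ifng was likewise not detected on these arrays.

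Chemokines, the secreted attractants of leukocytes, moved more. Of 16 tested CC chemokines 10 were higher (62.5%) and 2 lower (12.5%), with a median of 1.39, against 0.02 over all genes. Of 12 CXC chemokines 7 were higher (58.3%) and 1 lower (8.33%), with a median of 0.87. Over all genes 11.2% were higher and 11.4% lower. The lower counts rested on single arrays, since 1 CC chemokine was lower without challenged array 2, 3 or 4 or unchallenged array 1, 3 or 4, and 0 CXC chemokines without challenged array 1 or 2 or unchallenged array 2, 3 or 4. Ccl8, in the mouse an attractant of type 2 T cells and monocytes, stood at 9.10, 9.92, 10.28 and 9.90 on challenged arrays, against 5.08, 5.96, 5.53 and 6.14 on unchallenged arrays. The gap between the groups was wider than the range within either, and Ccl8 rose 17.4-fold (log2 4.12 ± 0.56, SE; limma adjusted p = 0.000349). The monocyte attractant Ccl7 rose 10.4-fold, Ccl9 6.52-fold and Ccl17, a ligand of Ccr4 on type 2 T cells, 6.37-fold. The eotaxins bind Ccr3 on eosinophils. Ccl11, eotaxin 1, stood at 8.23, 9.53, 7.86 and 9.11 on challenged arrays, against 6.97, 6.61, 6.55 and 6.66 on unchallenged arrays, and rose 3.96-fold (log2 1.99 ± 0.28, SE; limma adjusted p = 0.000476). Ccl24, eotaxin 2, was split within the challenged group, at 4.81, 7.99, 5.69 and 8.05, against 4.52, 4.54, 4.80 and 4.72 on unchallenged arrays. It was detected on 2 challenged and 0 unchallenged arrays and was at least 2.07-fold higher (limma adjusted p = 0.0332). That call ended without challenged array 2 or 4 and without any single unchallenged array.

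The neutrophil attractants Cxcl1 and Cxcl5 rose as well. Cxcl1 stood at 7.91, 9.40, 8.43 and 9.21 on challenged arrays, against 5.38, 5.57, 6.02 and 5.47 on unchallenged arrays, an 8.74-fold difference (log2 3.13 ± 0.43, SE; limma adjusted p = 0.000349). Cxcl5, made by alveolar epithelium, was detected on 4 challenged and 0 unchallenged arrays and was at least 4.29-fold higher. Both were highest on challenged arrays 2 and 4. The interferon-induced attractant of T cells Cxcl10 rose 3.10-fold, with 7.13, 7.16, 7.34 and 7.16 on challenged arrays, against 5.56, 5.72, 5.54 and 5.44 on unchallenged arrays. Ackr1, the scavenging chemokine receptor of venules, rose 2.16-fold.

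Saa3, a serum amyloid A protein made locally in lung, is induced by bacterial products and by interleukin 1. It stood at 9.02, 11.43, 10.03 and 11.30 on challenged arrays, against 5.24, 6.07, 6.41 and 6.59 on unchallenged arrays. The groups were separate, as were those of 14.6% of all genes in this direction, and Saa3 rose 20.7-fold (log2 4.37 ± 0.61, SE, with limma adjusted p = 0.000384). Lcn2, a siderophore-binding protein of epithelium and neutrophils, stood at 13.03, 13.84, 12.86 and 13.62 on challenged arrays and between 10.56 and 10.83 on unchallenged arrays, and rose 6.19-fold.

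Most mucus genes were higher, and Clca1 had the largest change of all called genes whose groups did not overlap. Of 17 tested goblet cell and mucus genes 13 were higher, or 76.5%, and 0 lower, against 11.2% and 11.4% of all genes, with a median log2 change of 1.79. Of the 17, 3 were detected on no unchallenged array and passed the filter through other arrays, which favours a call of higher. Clca1, a secreted protease that processes mucus, stood at 14.49, 14.49, 14.49 and 13.39 on challenged arrays, against 10.25, 6.96, 5.57 and 6.49 on unchallenged arrays. Quantile normalization gives equal ranks equal values, and Clca1 held rank 22 on 3 of the challenged arrays. Unchallenged array 1 stood apart from the other 3, yet below every challenged array, and Clca1 rose 119-fold (log2 6.89 ± 1.01, SE; limma adjusted p = 0.000530). Muc5ac, the gel-forming mucin of goblet cells, stood at 9.79, 9.90, 9.82 and 8.60 on challenged arrays, was not detected on any unchallenged array, and rose at least 15.4-fold (limma adjusted p = 3.1e-05). The small peptide gene Tff1, a trefoil factor that is secreted with mucin, rose 5.34-fold, and Bpifb1, an antibacterial protein of upper airways, 3.46-fold. Itln1, an intelectin of goblet cells that binds microbial sugars, was not detected on unchallenged arrays and was at least 3.37-fold higher.

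The factors that set the mucous fate also rose. Foxa3, a forkhead factor of goblet cells, stood at 8.40, 7.99, 8.15 and 7.55 on challenged arrays, against 5.26, 5.54, 5.27 and 5.13 on unchallenged arrays, and rose 6.61-fold (log2 2.72 ± 0.31, SE; limma adjusted p = 8.68e-05). Spdef, an ETS factor that acts with it, rose 2.15-fold, with 6.56, 6.71, 7.18 and 5.89 against 5.57, 5.57, 5.45 and 5.34. Ern2, the stress sensor of mucin-secreting cells, rose 4.42-fold. Scin, an actin-severing protein of secretory cells, rose 13.0-fold, with 9.97, 9.68, 9.87 and 8.81 on challenged arrays, against 6.23, 5.81, 5.72 and 5.76 on unchallenged arrays. Clca1, Muc5ac, Spdef, Foxa3 and Scin were all lowest on challenged array 4 among the challenged arrays.

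Airway liquid genes moved in both directions, with 8 of 28 channels and transporters higher (28.6%), 6 lower (21.4%) and a median of 0.02. Over all genes 11.2% were higher and 11.4% lower. The count of lower genes was 2 to 5 over the fits that left out 1 array. It moved by over 1.5 times without challenged array 2 or 4 or unchallenged array 2 or 3. Slc26a4, the anion exchanger pendrin, stood at 11.73, 12.58, 11.84 and 12.13 on challenged arrays, against 7.01, 7.25, 7.48 and 6.84 on unchallenged arrays. It rose 30.3-fold (log2 4.92 ± 0.40, SE; limma adjusted p = 7e-06), with ranges of less than 1 within each group. Fxyd4, a modulator of the sodium pump, was at least 7.72-fold higher and the sodium-glucose transporter gene Slc5a1 at least 3.83-fold higher, both detected on 4 challenged and 0 unchallenged arrays. Cftr, the chloride channel of airway epithelium, rose 1.64-fold, a call that ended with median scaling. Kcne2, a potassium channel subunit, stood at 5.24, 5.72, 5.53 and 5.91 on challenged arrays, against 7.12, 7.80, 7.83 and 7.53 on unchallenged arrays, and fell by 1.97 ± 0.29 log2 units (SE; adjusted p = 0.00055 by limma). It was detected on 1 challenged and 4 unchallenged arrays. Motile cilium genes contrasted with those of mucus, since 1 of 19 passed the test, Akap14, which was 2.10-fold lower.

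**Figure D3:**
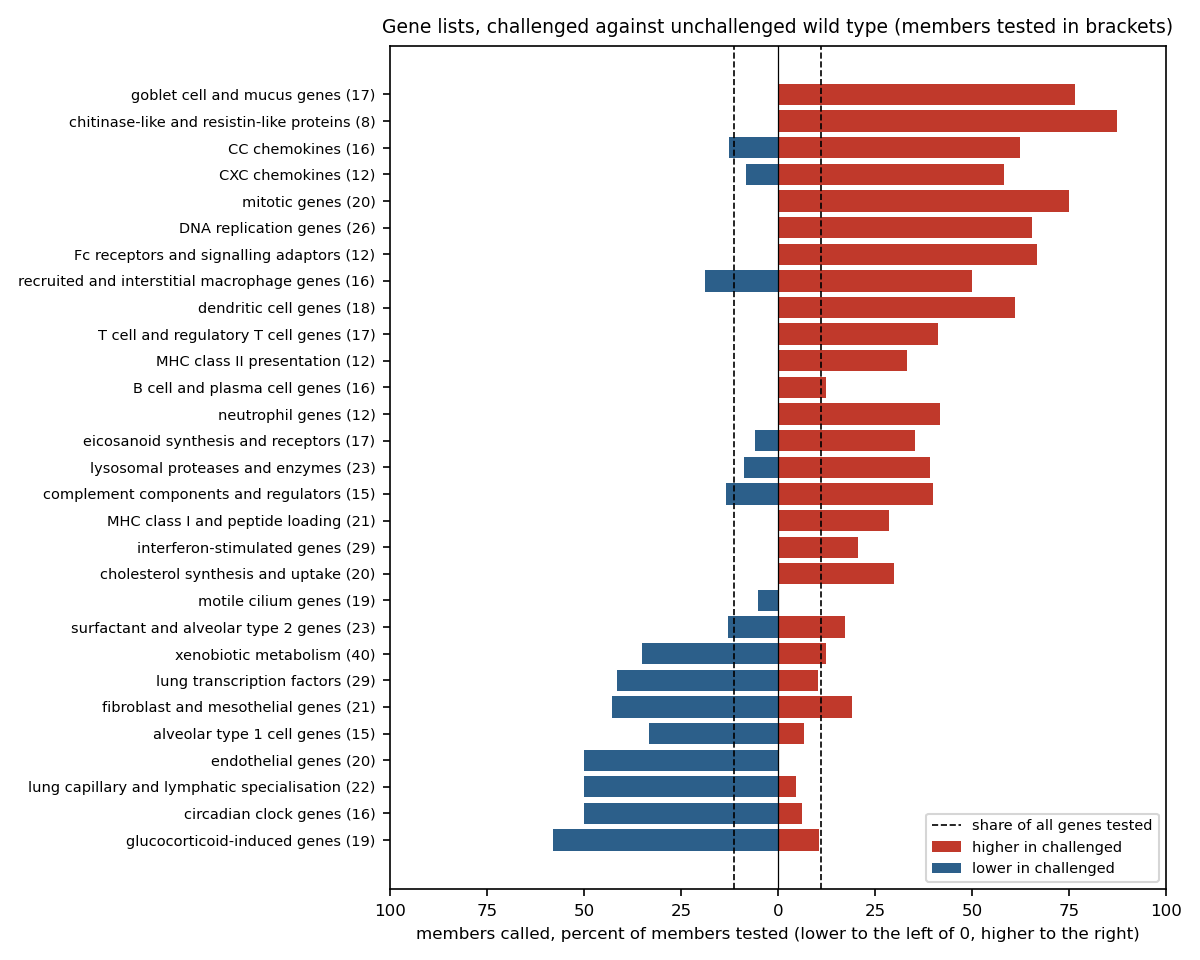
Share of tested members called higher (to the right of 0) and lower (to the left) in challenged against unchallenged lung for 29 gene lists, with the number tested in brackets and dashed lines at 11.2% higher and 11.4% lower, the shares of all genes tested. Bars for mucus, chitinase-like and cell division genes reached 65.4% higher or more, and those for endothelial, clock and glucocorticoid-induced genes reached 50% lower or more.

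Resistin-like and chitinase-like proteins are secreted by macrophages and airway epithelium and are hallmarks of type 2 inflammation in the mouse. Of 8 tested genes 7 were higher (87.5%) and 0 lower, against 11.2% and 11.4% of all genes, with a median log2 change of 2.41. Of the 8, 2 were detected on no unchallenged array and passed the filter through other arrays, which favours a call of higher. Retnla, the resistin-like molecule known as FIZZ1, stood at 15.41, 15.55, 15.41 and 15.55 on challenged arrays, against 11.23, 10.32, 9.98 and 9.91 on unchallenged arrays. Its probe was among the 4 brightest of every challenged array, near the top of the range, where saturation was not assessed and could lower the fold, and it was a measured 34.8-fold higher (log2 5.12 ± 0.47, SE; limma adjusted p = 2.65e-05). Retnlg, its neighbour on the same chromosome and a gene of neutrophils and bone marrow, stood at 10.14, 10.03, 9.08 and 10.27 on challenged arrays, against 7.21, 6.60, 7.62 and 6.73 on unchallenged arrays, and rose 7.15-fold. Chil4 stood at 12.36, 12.04, 10.97 and 10.26 on challenged arrays, against 6.18, 5.00, 4.82 and 5.06 on unchallenged arrays, and was higher by a measured 70.6-fold (log2 6.14 ± 0.48, SE; limma adjusted p = 6.25e-06). It was detected on 1 of the 4 unchallenged arrays, so that the size of this fold rests on values near background. It was highest on challenged arrays 1 and 2 and lowest on 4. The closely related Chil3, a product of alveolar macrophages, already stood between 12.07 and 12.60 without challenge and rose 4.61-fold. Chia1, the acidic chitinase of club cells, rose 6.15-fold, and Chil1 2.36-fold. Probes for members of these families can share signal with close relatives, and this was not tested.

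Interleukin 4 and 13 signalling reaches genes through STAT6, which prefers the letters TTC and GAA with any 4 letters between them. In the RefSeq promoters of build GRCm38.p6, the 250 bases upstream of the annotated start held this motif in 5.85% of 32851 promoters. A promoter was listed for 15 of the 20 highest genes, and 2 of them held the motif, Retnla and Retnlg; of the 20 lowest genes 17 had a promoter and 2 held it, Fkbp14 and Peli2. The motif reads the same on both strands, and it contains CACGTG, the other motif searched, only where its 4 middle letters are ACGT, as in 3 of all promoters. The stretch around each match in the resistin-like pair is shown, because both genes rose, with the match in capitals, on the plus strand. The Retnla match starts 145 bases upstream of the annotated start, within chr16:48842404-48842533, and the Retnlg match 72 bases upstream, within chr16:48872476-48872605.
Retnla: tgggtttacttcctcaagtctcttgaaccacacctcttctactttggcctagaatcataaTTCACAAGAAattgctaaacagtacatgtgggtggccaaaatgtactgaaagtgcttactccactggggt
Retnlg: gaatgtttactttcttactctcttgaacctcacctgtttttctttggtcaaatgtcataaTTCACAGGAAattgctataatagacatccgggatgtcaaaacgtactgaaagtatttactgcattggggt
Aligned on the match without gaps, the stretches were identical at 91 of 130 positions (70%). A match is a description of the letters and not a binding site.

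Macrophage genes included some of the higher and some of the lower genes. Of 16 tested genes of recruited and interstitial macrophages 8 were higher and 3 lower (median 0.93), and of 16 alveolar macrophage genes 5 were higher and 1 lower (median -0.13). The alveolar macrophage median turned to 0.28 without challenged arrays 1 and 2 and to 0.13 without the pair of arrays lowest in skeletal muscle genes, and the difference between the lists was not tested. Mmp12, the macrophage elastase, stood at 10.29, 10.87, 11.41 and 10.86 on challenged arrays, against 6.60, 6.51, 6.21 and 5.98 on unchallenged arrays, and rose 23.1-fold (log2 4.53 ± 0.50, SE; limma adjusted p = 6.7e-05). Trem2, a lipid-sensing receptor, rose 3.53-fold and the complement subunit gene C1qb 2.72-fold. Members that were lower included Apoe, the apolipoprotein of macrophages, at 6.97, 7.32, 8.04 and 8.26 on challenged arrays, against 8.72, 9.12, 9.17 and 8.77 on unchallenged arrays. Mertk, a receptor for apoptotic cells on resident macrophages, fell by 0.97 ± 0.16 log2 units (SE; adjusted p = 0.00138 by limma).

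Arginine metabolism, a marker of alternative activation, showed a narrow change, with 3 of 15 tested genes higher and 2 lower (median 0.18), or 1 lower whichever array was left out. Arg1, arginase, stood at 8.11, 10.23, 8.96 and 10.37 on challenged arrays, against 5.52, 6.41, 6.10 and 5.76 on unchallenged arrays, and rose 11.1-fold (log2 3.47 ± 0.42, SE; limma adjusted p = 0.000148). Slc7a2, which carries arginine into cells, rose 2.50-fold. Lysosomal genes were higher in 9 of 23 cases (39.1%) and lower in 2 (8.7%). The matrix-degrading cathepsin gene Ctsk rose 3.46-fold, with 10.30, 11.05, 11.11 and 10.70 against 9.07, 9.12, 9.00 and 8.80, and Ctsz rose 3.03-fold. Timp1, an inhibitor of metalloproteinases, stood at 10.10, 11.57, 9.96 and 11.47 on challenged arrays, against 7.76, 7.74, 7.95 and 8.04 on unchallenged arrays, and rose 7.46-fold. Mmp13, a collagenase, rose 2.74-fold.

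Genes of antigen-presenting cells and Fc receptors were higher in part. Of 18 tested dendritic cell genes 11 were higher (61.1%) and 0 lower (median 0.79). Of 12 Fc receptor and adaptor genes 8 were higher (66.7%) and 0 lower (median 0.95). Over all genes 11.2% were higher and 11.4% lower. With mean signal as a covariate 6 dendritic cell and 3 Fc receptor and adaptor genes were higher. Itgax, the integrin CD11c of dendritic cells and alveolar macrophages, stood at 7.71, 7.46, 7.78 and 7.58 on challenged arrays, against 6.12, 6.34, 5.78 and 6.36 on unchallenged arrays, and rose 2.80-fold (log2 1.48 ± 0.20, SE; limma adjusted p = 0.00033). Batf3, a factor of type 1 conventional dendritic cells, rose 2.96-fold. Fcgr2b, the inhibitory receptor for IgG, rose 2.85-fold and Fcer2a, the low-affinity receptor for IgE on B cells, 2.98-fold. Of 12 genes of MHC class II presentation 4 were higher, led by H2-DMb1, a peptide-exchange subunit, at 2.41-fold; that count was 2 without challenged array 3 or unchallenged array 3.

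Granulocyte genes were in part at the edge of detection. The eosinophil ribonuclease gene Rnase2a stood at 11.25, 12.01, 11.01 and 12.02 on challenged arrays and was not detected on any unchallenged array, where its values lay between 4.73 and 5.19. It was at least 63.5-fold higher (limma adjusted p = 7e-06). The ribonucleases of this family are close copies, and a probe may read more than 1 of them. Prg2, the major basic protein of eosinophil granules, stood at 6.09, 6.34, 6.80 and 7.81 on challenged arrays, against 5.80, 5.46, 5.32 and 5.09 on unchallenged arrays, and was 2.53-fold higher (adjusted p = 0.0189), with a log2 change of 1.23 and no call without unchallenged array 4. The eosinophil genes Epx, Siglecf and Ccr3 were not detected on any of the 15 arrays. Siglecf is also a gene of alveolar macrophages, so its absence is not particular to eosinophils. Of 5 tested eosinophil genes 2 were higher (40.0%) and 0 lower, against 11.2% and 11.4% of all genes, and 2 were detected on no unchallenged array. Of 12 neutrophil genes 5 were higher and 0 lower (median 0.58), and without unchallenged array 2 or 4 the count of higher genes was 3. S100a9, a calprotectin subunit, stood at 11.16, 10.21, 9.93 and 11.10 on challenged arrays, against 9.03, 8.64, 9.90 and 8.59 on unchallenged arrays, and rose 2.95-fold. The groups came close for this gene on challenged array 3 and unchallenged array 3. Of 5 tested mast cell and basophil genes 1 was higher and 1 lower (median 0.19). The higher one was Hdc, the enzyme that makes histamine, at 1.59-fold, a call that ended with median scaling.

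Of 17 tested T cell and regulatory T cell genes 7 were higher (41.2%) and 0 lower, against 11.2% and 11.4% of all genes (median 0.86). Single arrays mattered here, since the count of higher genes was 4 to 7 over fits without 1 array. It moved by more than 1.5 times without challenged array 3 or 4 or unchallenged array 2 or 4. Ctla4, the inhibitory receptor of regulatory T cells, stood at 7.98, 7.29, 7.89 and 7.96 on challenged arrays, against 5.67, 5.64, 6.16 and 6.43 on unchallenged arrays, and rose 3.49-fold (log2 1.80 ± 0.30, SE; limma adjusted p = 0.00132). The costimulatory receptor genes Tnfrsf4 (OX40) and Tnfrsf9 (4-1BB) were 2.37-fold and at least 1.89-fold higher. B cell and plasma cell genes passed in 2 of 16 cases (12.5%, against 11.2% of all genes), with a median of 0.69 that ran from 0.45 to 0.86 over fits without 1 array and was 0.05 with mean signal as a covariate. The called members of this list include Pigr, a gene of epithelium rather than of B cells, which carries IgA across it. Pigr was 4.89-fold higher, with 9.49, 10.33, 11.06 and 10.54 against 7.92, 8.36, 7.87 and 8.11.

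Lipid mediators of allergy are made from arachidonic acid. Of 17 tested genes of their synthesis and reception 6 were higher (35.3%) and 1 lower (5.88%), against 11.2% and 11.4% of all genes. Tbxas1, thromboxane synthase, rose 2.34-fold, a call that ended with median scaling, and the epidermal-type lipoxygenase gene Alox12e was at least 1.26-fold higher. Hpgd, which breaks prostaglandins down, stood at 11.75, 11.28, 11.01 and 11.31 on challenged arrays, against 12.39, 12.46, 12.56 and 12.60 on unchallenged arrays, and fell by 1.16 ± 0.19 log2 units (SE; adjusted p = 0.00104 by limma).

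Interferon genes had a small median change. Of 29 tested interferon-stimulated genes 6 (20.7%, against 11.2% of all genes) were higher and 0 lower, with a median of 0.16 that turned to -0.22 with median scaling, and 3 were higher without unchallenged array 2 or without challenged arrays 1 and 2 together. Ifitm1, a membrane protein that restricts viruses, rose 1.97-fold, with 9.40, 9.23, 9.31 and 9.03 on challenged arrays, against 8.44, 8.57, 8.08 and 7.98 on unchallenged arrays. Ifit3 rose 1.53-fold, a call that ended with median scaling. The brighter probe of Ifit2, named in the title of the series, stood at 8.13, 8.09, 7.75 and 7.81 on challenged arrays, against 8.21, 8.28, 8.28 and 8.26 on unchallenged arrays. All challenged arrays lay below, as for 14.8% of all genes, and the test was not passed (log2 -0.32 ± 0.17, SE, with limma adjusted p = 0.21). That probe did pass with median scaling, with array weights and with mean signal as a covariate, and its adjusted p ran from 0.00478 to 1.0 over the alternatives. The other Ifit2 probe averaged 6.87 ± 0.38 on challenged and 7.76 ± 0.12 on unchallenged arrays (SD, n = 4 each) and passed, 0.89 log2 units lower (-0.89 ± 0.15, SE; limma adjusted p = 0.00149). Of 21 genes of MHC class I and peptide loading 6 were higher and 0 lower (median 0.24).

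Most cell division genes rose. Of 26 tested DNA replication genes 17 (65.4%) were higher and 0 lower (median 0.94), and of 20 mitotic genes 15 (75.0%) were higher and 0 lower (median 1.01). Over all genes 11.2% were higher and 11.4% lower. Uhrf1, which maintains DNA methylation in S phase, stood at 9.89, 10.49, 10.18 and 10.29 on challenged arrays, against 7.98, 7.54, 8.03 and 8.24 on unchallenged arrays, and rose 4.81-fold (log2 2.27 ± 0.25, SE; limma adjusted p = 6.87e-05). Lig1, the ligase that joins lagging-strand fragments, had a narrower range, with 8.96 to 9.26 on challenged and 7.76 to 8.03 on unchallenged arrays, and was 2.39-fold higher. Tk1, thymidine kinase, rose 3.77-fold, Prc1, which bundles the midzone spindle, 3.26-fold, and Birc5, the survivin of the chromosomal passenger complex, 2.88-fold. The mitotic genes were highest on challenged arrays 2 and 4, with list medians of 1.44 and 1.26 above the unchallenged mean, against 0.71 and 0.89 on challenged arrays 1 and 3. Genes of cholesterol, iron and glucose supply were less uniform, and a link to cell division was not tested. Of 20 cholesterol genes 6 were higher and 0 lower, including Mvd (2.33-fold) and Idi1 (2.08-fold) of the mevalonate pathway, and 3 were higher without single arrays (challenged 2 or 3, or unchallenged 2 or 4). The transferrin receptor gene Tfrc rose 2.39-fold, the glucose transporter gene Slc2a3 2.27-fold and the leukocyte hexokinase gene Hk3 2.44-fold. The cystine importer gene Slc7a11 was at least 1.91-fold higher.

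Part of the vascular genes were lower. Of 20 tested endothelial genes 10 were lower and 0 higher (median -0.46), and of 22 genes of lung capillaries and lymphatics 11 were lower and 1 was higher (median -0.55), against 11.4% of all genes lower. With mean signal as a covariate 6 and 7 were lower. Tmem100, a target of BMP9 signalling in arteries and capillaries, stood at 12.34, 11.88, 11.67 and 12.03 on challenged arrays, against 13.29, 12.92, 13.16 and 13.23 on unchallenged arrays, and fell by 1.17 ± 0.14 log2 units (SE; adjusted p = 0.000148 by limma). Of other genes of BMP signalling in general, the coreceptor gene Eng fell by 0.71, the ligand gene Bmp6 by 1.00 and the receptor gene Bmpr2 by 0.91. The receptor gene Acvrl1 was not called (log2 -0.49, limma adjusted p = 0.0828), and its groups overlapped. Tek, the receptor for angiopoietins, fell by 1.17 and Adgrl4, an adhesion receptor of sprouting endothelium, by 1.02. The 1 higher gene was the venular Ackr1. The genes of soluble guanylate cyclase and of a lectin of endothelium, Gucy1b1 and Clec1a, fell by 1.79 and 1.78, and Gucy1b1 stood at 7.20, 7.28, 7.62 and 7.95 on challenged arrays, against 8.72, 9.52, 9.62 and 9.37 on unchallenged arrays.

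Stromal genes moved in both directions. Of 21 fibroblast and mesothelial genes 9 were lower and 4 higher (median -0.42), a count of higher genes that lay between 1 and 5 over fits that left out 1 array and moved by over 1.5 times without challenged array 2, 3 or 4 or unchallenged array 2, 3 or 4. Scube2, a secreted protein that carries hedgehog ligands, stood at 7.25, 6.67, 6.92 and 6.85 on challenged arrays, against 8.52, 8.31, 8.25 and 8.33 on unchallenged arrays, and fell by 1.43 ± 0.20 log2 units (SE; adjusted p = 0.000469 by limma). Inmt, a methyltransferase abundant in alveolar fibroblasts, fell by 1.22, Pdgfra by 1.06 and the fibroblast factor Tcf21 by 1.36. Fgf7, a growth factor that fibroblasts supply to epithelium, fell by 1.75, and Tgfbr3, a coreceptor for TGF-beta, likewise by 1.75. Bmper, a secreted modulator of BMP ligands, fell by 1.72. Higher members included Wnt5a, at 8.34, 8.70, 8.52 and 8.43 on challenged arrays, against 7.96, 7.58, 7.63 and 7.65 on unchallenged arrays (1.73-fold, a call that ended with median scaling). Of 26 collagen and matrix genes 6 were lower (23.1%) and 5 higher (19.2%), against 11.4% and 11.2% of all genes. As few as 3 were higher without challenged array 2 or any single unchallenged array. Col4a3, of the alveolar basement membrane, fell by 1.20 and Plod2, a collagen-crosslinking hydroxylase, by 0.95, whereas Col6a2, of interstitial matrix, rose 2.04-fold.

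Alveolar and secretory epithelium showed mixed changes. Of 15 type 1 cell genes 5 were lower (33.3%) and 1, Igfbp2, was higher (6.67%), with a median of -0.45. Igfbp2, a carrier of insulin-like growth factors, stood at 10.73, 10.53, 10.42 and 10.40 on challenged arrays, against 10.03, 9.78, 10.16 and 10.24 on unchallenged arrays, and its call was lost whichever array was left out, and without unchallenged array 3 or 4 the count of lower genes was 3. Cav2, of caveolae, stood at 8.42, 7.37, 6.88 and 7.77 on challenged arrays, against 8.84, 9.07, 8.92 and 9.01 on unchallenged arrays, and fell by 1.35 ± 0.25 log2 units (SE; adjusted p = 0.00216 by limma). Cav1 fell by 0.64 and Emp2, a tetraspan membrane protein of type 1 cells, by 0.61. Of 23 type 2 cell genes 4 were higher (17.4%) and 3 lower (13.0%), against 11.2% and 11.4% of all genes (median -0.03). Sftpb, the surfactant protein needed to spread lipid films, stood at 11.75, 11.42, 12.19 and 11.59 on challenged arrays, against 12.55, 12.85, 12.82 and 12.66 on unchallenged arrays, and fell by 0.99, while Etv5, a factor that maintains type 2 cells, fell by 1.68. Of 17 club cell genes 6 were higher (35.3%) and 5 lower (29.4%). Reg3g, an antibacterial lectin, rose 4.47-fold, with 12.08, 12.11, 12.03 and 10.83 on challenged arrays, against 10.15, 9.79, 9.26 and 9.20 on unchallenged arrays. Cyp2f2, the club cell cytochrome P450, fell by 1.08, with 14.23, 13.56, 14.23 and 13.11 against 14.82, 14.99, 14.82 and 14.82.

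Part of the detoxifying enzymes were lower. Of 40 tested genes of xenobiotic metabolism 14 (35.0%) were lower and 5 (12.5%) higher, against 11.4% and 11.2% of all genes (median -0.26). The higher count was as low as 2 without single arrays (challenged 2 or 3, or unchallenged 2, 3 or 4). Pon1, a paraoxonase, stood at 9.67, 8.23, 8.64 and 8.41 on challenged arrays, against 10.93, 11.24, 10.86 and 11.03 on unchallenged arrays, and fell by 2.28 ± 0.28 log2 units (SE; adjusted p = 0.000161 by limma). Cyp2a5, a cytochrome P450 whose probe may also read its close relatives, fell by 1.86, the glutathione transferase genes Gsta3 and Gstm1 by 0.98 and 0.87. Acot1 and Acaa1b, enzymes of cytosolic and peroxisomal fatty acid handling that PPAR-alpha induces in liver, fell by 1.80 and 1.70.

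Transcription factors of the lung were lower in 12 of 29 cases (41.4%) and higher in 3 (10.3%), against 11.4% and 11.2% of all genes (median -0.35). Epas1, the hypoxia-inducible factor of endothelium and type 2 cells, stood at 8.45, 7.85, 8.34 and 7.48 on challenged arrays, against 9.96, 9.40, 9.31 and 9.36 on unchallenged arrays, and fell by 1.48 ± 0.22 log2 units (SE; adjusted p = 0.000617 by limma). Foxf1, a forkhead factor of lung mesenchyme and capillaries, fell by 1.24. Klf9, which glucocorticoid induces, fell by 1.52, and Klf15 was detected on 0 challenged and 4 unchallenged arrays and was at least 1.24-fold lower.

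Glucocorticoid-induced genes had the lowest median of the lists, -0.96. Of 19 tested 11 were lower (57.9%) and 2 higher (10.5%), against 11.4% and 11.2% of all genes. The 2 higher members were Lcn2 and the metallothionein gene Mt1, which also respond to inflammation; the log2 change of Mt1 was 0.45 to 0.59 over the fits that left out 1 array, and its call ended without challenged array 1 or 2 or unchallenged array 1, 2 or 3. Angptl4, an inhibitor of lipoprotein lipase that glucocorticoid and fasting induce, stood at 8.20, 8.45, 7.37 and 8.42 on challenged arrays, against 11.13, 10.91, 10.71 and 10.84 on unchallenged arrays. No challenged array came within 2 log2 units of an unchallenged one, and Angptl4 fell by 2.79 ± 0.21 (SE; limma adjusted p = 5.08e-06). Tsc22d3, the glucocorticoid-induced leucine zipper GILZ, stood at 11.08, 10.16, 10.37 and 10.97 on challenged arrays, against 12.06, 12.61, 12.08 and 12.51 on unchallenged arrays, and fell by 1.67 ± 0.29 (SE; adjusted p = 0.00146). Map3k6, a stress kinase, fell by 1.78, Fam107a, an actin-binding stress gene, by 1.67 and the phosphatase gene Dusp1 by 1.11. Challenged array 1 was the highest of its group for Klf9, Tsc22d3, Map3k6, Fam107a, Dusp1 and Per1. Over the whole list its median stood at -0.12 relative to the unchallenged mean, against -1.03, -1.43 and -1.09 on challenged arrays 2 to 4. The same array held the most pancreas signal, and whether these are related was not tested.

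**Figure D4:**
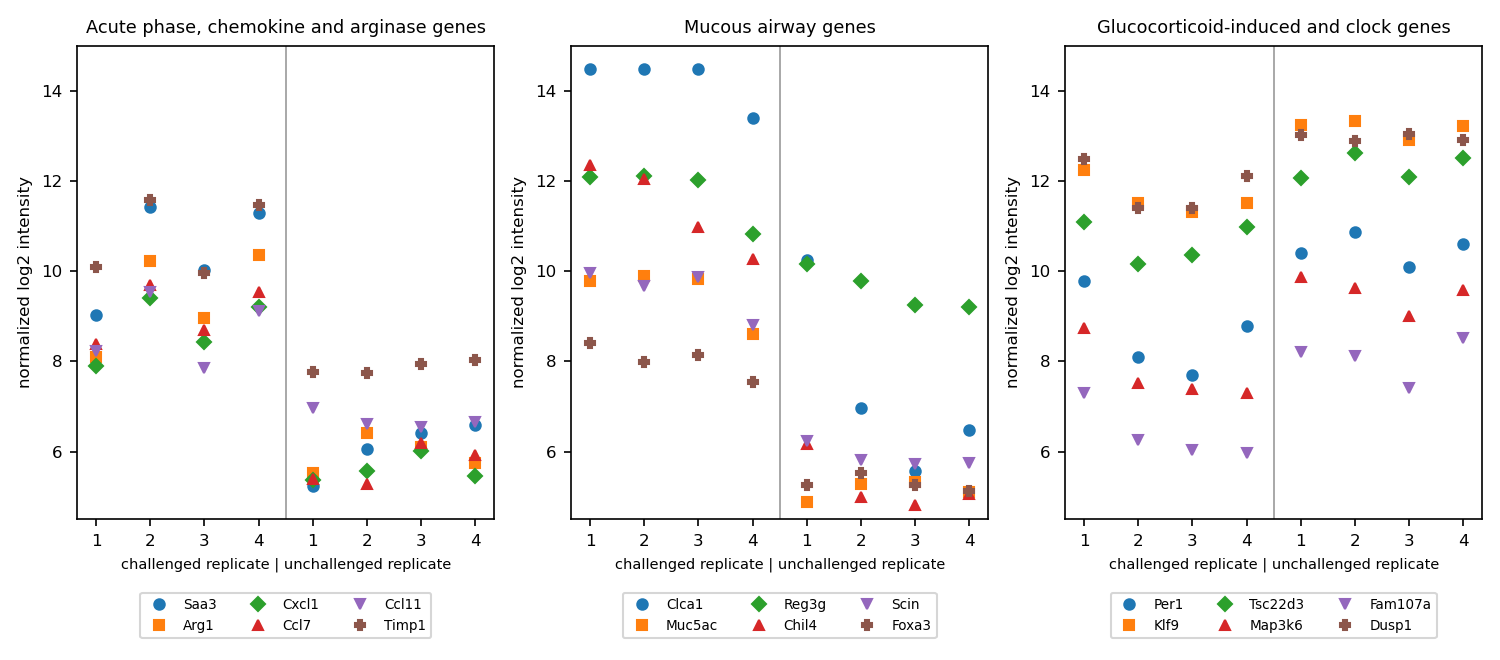
Normalized log2 intensity of 18 genes on each array, in 3 panels, with the challenged replicates left of the vertical line and the unchallenged replicates right of it. Of the genes shown, those of acute phase were highest on challenged arrays 2 and 4 and most mucous genes were lowest on challenged array 4. The glucocorticoid-induced genes shown were highest of the challenged group on array 1. Members not shown could differ. Angptl4 stood at 8.20 on challenged array 1 against 8.45 on array 2, and Slc26a4 at 12.13 on array 4 against 11.73 on array 1.

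Clock genes overlapped with that list and were lower in 8 of 16 cases and higher in 1 (median -0.60), although 4 to 6 were lower over fits that left out 1 array, the smallest counts coming without challenged array 2 or 4 or unchallenged array 2, 3 or 4. The labels state no time of day at collection, and its part cannot be told apart from that of challenge. Per1, a repressor of the clock that glucocorticoid also induces, stood at 9.79, 8.09, 7.70 and 8.79 on challenged arrays, against 10.40, 10.86, 10.09 and 10.61 on unchallenged arrays, and fell by 1.89 ± 0.39 log2 units (SE; adjusted p = 0.00386 by limma). It passed by 1 of its 2 probes. Cry2 and Per3, repressors as well, fell by 1.26 and 1.03, and Nr1d1, the nuclear receptor REV-ERB alpha, by 0.82, whereas Bhlhe40, a repressor induced by cytokines and hypoxia, rose 2.11-fold. CLOCK and BMAL1 bind the letters CACGTG, which 6.02% of the 32851 promoters held. Of the 19 listed clock genes 16 had a promoter, and 5 of these held it, Per1, Ciart, Bhlhe41, Cry1 and Tef. The Per1 stretch is shown because Per1 had the largest change of the list. The match, in capitals, starts 166 bases upstream of the annotated start, within chr11:69098723-69098848 of GRCm38.p6, plus strand.
Per1: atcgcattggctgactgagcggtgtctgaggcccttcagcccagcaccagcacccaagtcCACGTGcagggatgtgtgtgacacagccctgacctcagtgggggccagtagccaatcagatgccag

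The remaining genes with the largest changes belong to none of these groups. AA467197 rose 14.9-fold, with 10.36, 10.66, 10.65 and 10.55 on challenged arrays, against 7.19, 6.64, 6.42 and 6.36 on unchallenged arrays. Pnliprp1 and Gp2, genes of pancreatic acinar cells, were 35.0-fold and 8.58-fold higher, with adjusted p of 0.0413 and 0.0421 by limma. Pnliprp1 stood at 14.57, 13.77, 8.34 and 7.65 on challenged arrays, against 5.94, 5.81, 5.87 and 6.19 on unchallenged arrays, following the pancreas sums. Pnliprp1 was not called without challenged array 1 or 2, nor Gp2 without challenged array 1, 2 or 3, nor either without any single unchallenged array. Over the fits that left out 1 array the log2 change of Pnliprp1 lay between 3.97 and 6.27 and that of Gp2 between 2.43 and 3.91. Tinagl1, a matrix protein, fell by 1.79, the peptidyl-prolyl isomerase gene Fkbp14 by 1.80, the ubiquitin ligase gene Peli2 by 1.73 and the cullin gene Cul4a by 1.65.

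**Figure D5:**
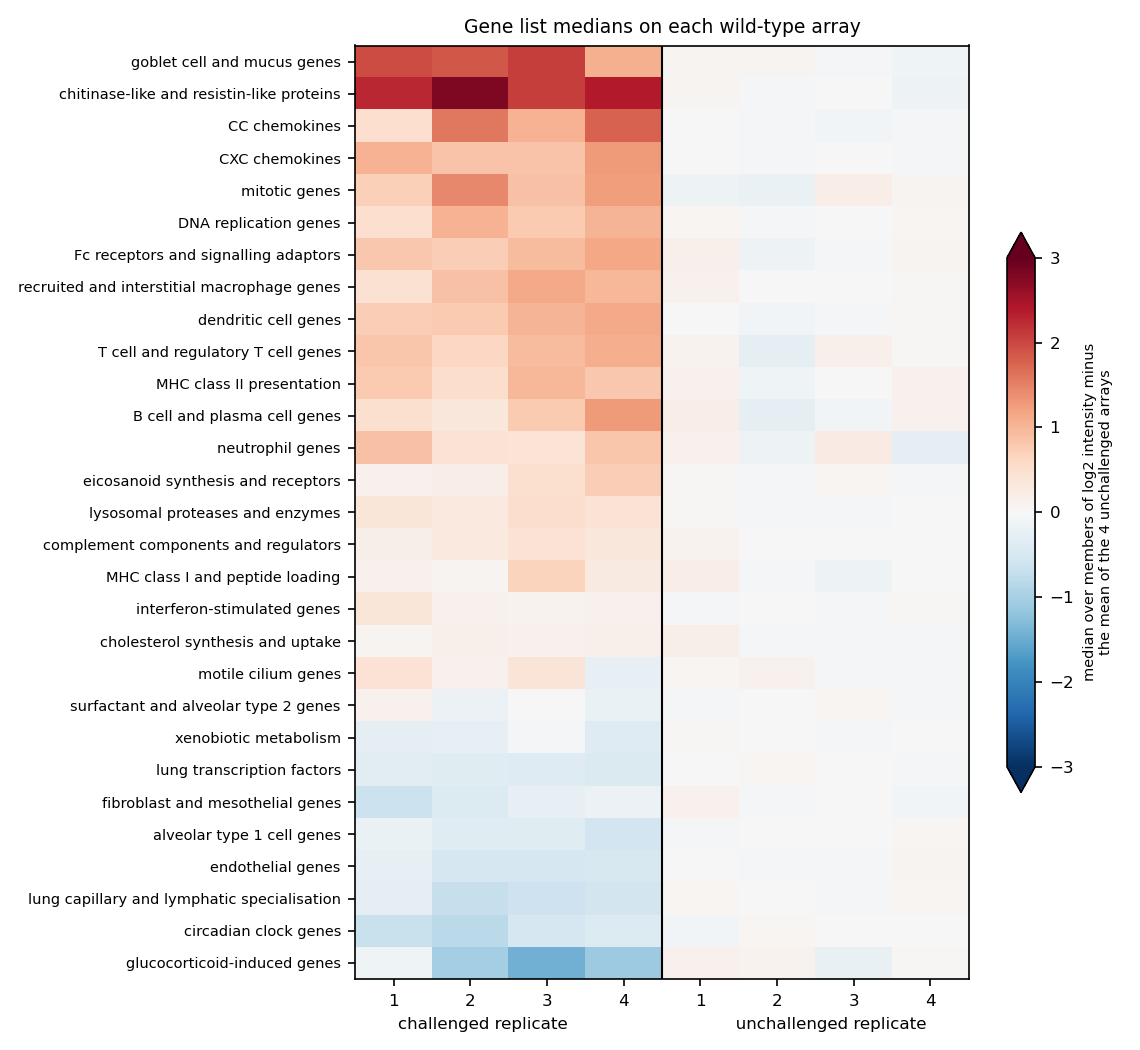
Median over the tested members of each gene list of log2 intensity minus the mean of the 4 unchallenged arrays, with a column per array, challenged replicates left of the line and unchallenged replicates right of it. Chitinase-like and resistin-like genes ran from 2.07 to 2.81 on the challenged arrays, and glucocorticoid-induced genes from -1.43 to -0.12.

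Challenged arrays differed from each other in patterns that ran across lists. CC chemokines had list medians of 0.51, 1.58, 1.05 and 1.77 above the unchallenged mean on challenged arrays 1 to 4, against -0.08 to 0.02 on unchallenged arrays. Goblet cell and mucus genes had medians of 1.95, 1.87, 2.07 and 1.07 on challenged arrays, with the lowest value on array 4, where CC chemokines were highest. Challenged arrays 2 and 4 were also the brighter ones of their group. Without challenged arrays 1 and 2, which held the pancreas signal, the medians were 1.63 for mucus genes, 2.35 for chitinase-like and resistin-like genes, 1.62 for CC chemokines, 0.86 for DNA replication, -0.56 for endothelial genes and -1.09 for glucocorticoid-induced genes. The counts of called members were then 10 of 17, 6 of 8, 10 of 16 and 16 of 26 higher, and 8 of 20 and 11 of 19 lower. Other lists lost more calls, with 10 of 20 mitotic and 3 of 17 T cell genes higher, and 3 of 16 clock, 7 of 29 transcription factor and 4 of 21 fibroblast and mesothelial genes lower, the median of this last list being -0.22. Higher counts were then 2 of 17 for club cell, 2 of 23 for type 2 cell, 3 of 12 for neutrophil, 3 of 20 for cholesterol and 0 of 40 for xenobiotic metabolism genes.

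Some counts moved by more than 1.5 times with mean signal as a covariate. Those called lower were then 7 of 19 glucocorticoid-induced, 3 of 16 clock, 7 of 29 transcription factor, 5 of 21 fibroblast and mesothelial, 1 of 15 type 1 cell and 9 of 40 xenobiotic metabolism genes. Those called higher were 3 of 17 T cell, 2 of 12 neutrophil, 2 of 17 club cell, 3 of 20 cholesterol and 0 of 21 MHC class I genes. Probes of 1 gene did not always move alike. Those of Clec1a ran from -1.78 to 0.53, those of Ifit3 from -0.36 to 0.61 and those of Igfbp2 from -0.68 to 0.46 in log2 change, and 1 of 4 probes of Lig1 passed. For Slc7a2, Tnfrsf9, Wnt5a and Mmp13 1 of 2 probes passed, and for Fcgr2b 2 of 3.

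Ifit2 mutants labelled as challenged were measured on other arrays. Whether their dose, route or schedule matched that of the wild types is not known from the labels. No gene and no probe passed the test of the difference between the responses (0 of 14396 probes by limma, 590 of them, or 4.1%, at an unadjusted p under 0.05, and 1 with cyclic loess normalization). Clca1 changed by 6.89 in wild types and by 3.45 in mutants, a difference of 3.44 ± 1.48 (SE). Retnla changed by 5.12 in wild types and 3.03 in mutants, Chil3 by 2.20 and 0.90 and Angptl4 by -2.79 and -1.45, while Saa3 changed by 4.37 and 4.33 and Arg1 by 3.47 and 4.34. With 4 and 3 to 4 mice in the groups, differences of this size between the responses did not pass, which does not show that the responses are alike.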

How the data were processed

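Whole-lung RNA of 15 mice was measured with 1 array per mouse, and groups were taken from the labels' genotype and treatment. Per the file headers, the authors deposited linear intensity that is not normalized, with a detection p-value beside it, for 25697 probes. Of these 23978 carry 1 gene symbol, 0 several and 1719 none in the platform annotation. The submitters' processing notes name GenomeStudio 2011.1 without a role, and scan dates and slides are not labelled. The authors' series matrix, intensities normalized in a way not given in the sources used here, served as an alternative.

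The neqc function of limma 3.58.1 (R 4.3.3, offset 16) corrected the background, normalized by quantiles and gave log2 values. Probes with a detection p under 0.05 on at least 3 of the 15 arrays were tested, 14396 in all, and a gene is given by its brightest tested probe. A probe detected on no unchallenged array can pass this filter through challenged arrays, which favours a call of higher. The reverse holds for a probe detected on no challenged array. A model of 4 group means on all 15 arrays was fitted by lmFit and eBayes, leaving 11 residual degrees of freedom, and two-sided p-values were adjusted over all tested probes by Benjamini-Hochberg and called under 0.05. The fit was tested on simulated arrays with known changes. For a probe detected on no array of a group the fold is given as at least its value, computed against a floor: on each array of the dimmer group, the lowest signal of any detected probe, or the probe's own signal if higher. A probe detected on 1 to 3 arrays of a group, as for 25 of the genes described, keeps its measured fold, which rests partly on values near background. Array means were compared with exact permutation tests, and precision is limited by how few arrays there are.

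The 55 gene lists, the members compared and the named genes were chosen with earlier results of these data known, and no list was given a test. Of 1203 list genes 882 were tested, 207 had a named probe that did not pass the detection filter and 114 had no named probe. Genes named were the 20 highest and 20 lowest changes among called genes whose groups did not overlap, the 4 members of each list with the smallest p, Ifit2, Xist, Il4, Il5, Il9, Il13 and Ifng, and other list members with their values; a smaller set is printed. Replicate numbers were not treated as pairs of mice. Correlations of deviations between same-numbered arrays were 0.499, 0.251, 0.076 and -0.039, against -0.479 to 0.322 between arrays of other numbers. So few values cannot exclude a pairing. Alternatives covered background correction, normalization, filters, the model, and arrays left out. Promoter sequences are RefSeq's, build GRCm38.p6.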

Additional observations from a re-analysis of the deposited data

Results flagged for a closer look

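Single arrays stood apart from the other 3 of their group by Dixon's criterion (a gap to the nearest array that takes up most of the group's range) in 15 of 280 groups of 4 looked at, or 5.36%, and chance gives about 1 in 20. On challenged array 4 the mucus-linked genes Clca1 (13.39), Muc5ac (8.60) and Reg3g (10.83) stood below the rest of the challenged group. On challenged array 1 Map3k6 (8.75), Eng (10.70) and Bmp6 (8.20), all lower after challenge, stood above the rest of that group. Cxcl10 stood apart at 7.34 on challenged array 3 and Ctla4 at 7.29 on challenged array 2. On unchallenged array 1 Alox12e (5.59), Tek (10.95), Epas1 (9.96) and Cul4a (8.39) stood apart, and the mean signal of that array was 495 intensity units. On unchallenged array 2 C1qb (8.67) and Cyp2f2 (14.99) stood apart. None of these differences within groups was tested further.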

How the results depend on the processing

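The 132 genes described kept the direction of their change under every alternative that gave a value (24 for 124 genes and 23 for 8), and 2964 of 3160 gene results also kept their call; 193 calls ended and 3 arose, and 49 genes held their call throughout. Probes and genes called numbered 3240 and 2300, against 5158 and 3559 with median scaling, 5410 and 3833 with array weights, 108 and 80 with a minimum of 1.5-fold, 1472 and 1041 with mean signal as a covariate, and 1932 and 1408 without the pair of arrays of high pancreas genes (challenged 1 and 2). Median scaling, without an equal distribution for all arrays, left 10.8% of calls higher, against 43.5%. Without 1 array the counts ranged from 2106 to 3118 probes and from 1492 to 2185 genes, lowest without unchallenged array 2. Called probes of the difference between wild types and mutants were 0, and 1 with cyclic loess. With the replicate number as a block, although a pairing by number was not established, 2856 probes and 2041 genes were called and 3 described genes changed call, Ccl24, Mt1 and Igfbp2. An alternative chosen after seeing the data, without the pair of arrays lowest in skeletal muscle genes, called 2571 probes and 1834 genes. Of the 132 described genes 82 changed call with a minimum of 1.5-fold, the most of any alternative. Il33, Hdc, Tbxas1, Wnt5a, Ifit3 and Cftr, whose calls also ended with median scaling, are among these. With mean signal as a covariate 31 changed call, and 18 did so without the arrays of high pancreas genes. Among the 18 were Gucy1b1, Fgf7, Tgfbr3, Bmper, Etv5, Spdef, Fcer2a, Apoe, Ackr1, Tcf21, Cry2, Nr1d1 and Cftr. The fewer arrays give less precision, and other causes were not tested. Genes not detected in a group have only a lower bound for their fold.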
